A study of Homo sapiens with 9 samples.

Results

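The RNA of 5 genes of plasminogen activation was followed in MDA-MB-231 cells. They were the activators *PLAU* (urokinase) and *PLAT* (tissue plasminogen activator), the urokinase receptor *PLAUR*, and the inhibitory serpins *SERPINE2* and *SERPINB2*. The genes were chosen by name, with earlier results of these data known, and each was found once among the 60664 genes listed. All 5 passed the filter on low counts that left 18264 genes to test. Each gene was compared between 3 groups of 3 samples. Scramble control (SC) cells were kept at 0.77 cP, the baseline viscosity of the medium, or at 8 cP. The third group, at 8 cP, had *TRPV4*, which encodes a calcium-permeable ion channel, knocked down with a short hairpin RNA (shTRPV4). MDA-MB-231 is an established human breast cancer line, the labels give the SC cells as WT, and every sample was taken on day 6. As the authors describe SC as a scramble control, these cells carried a non-targeting scramble sequence at both viscosities. shTRPV4 cells at 0.77 cP were not analysed here, so in shTRPV4 cells the knockdown is seen at 8 cP alone. The comparison of shTRPV4 cells at 8 cP with SC cells at 0.77 cP changes hairpin and viscosity together, and their parts cannot be told apart.

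Plasminogen is an inactive precursor that the liver releases into blood. Urokinase and tissue plasminogen activator cut it into plasmin, a protease that dissolves fibrin and degrades matrix. The urokinase receptor holds urokinase at the cell surface, where tumour cells use it during invasion, and serpins end the reaction by trapping the protease in a dead complex that receptors of the LDL receptor family clear. *SERPINE2* encodes protease nexin-1, which inhibits thrombin and urokinase. *SERPINB2* encodes plasminogen activator inhibitor type-2, which stays largely inside cells and is known for steep induction by inflammatory and growth signals.

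The 9 libraries held between 64571681 and 103518036 counts. Levels are given as CPM, each count relative to its library size after TMM scaling. The hairpin's target *TRPV4* had 24 to 64 counts in the 6 SC samples and 1 to 13 in shTRPV4 cells, without overlap (log2 fold change of SC over shTRPV4 cells at 8 cP 2.51, SE 0.49, adjusted p = 0.00219, edgeR). The line's markers *VIM*, *CD44*, *ZEB1*, *KRT8* and *KRT18* were abundant, and *ESR1*, *PGR* and *CDH1* had at most 12 counts in a sample. Of the markers fixed as low, *ERBB2* and *EPCAM* were present, with group means of 93.2 to 95.5 CPM and 18.1 to 19.0 CPM. Among markers of other cell types, *CD3E*, *CDH5* and *DCN* had at most 6 counts, *PTPRC* at most 17 counts, and *CD14*, *PECAM1*, *COL1A1* and *LUM* group means of 0.690 to 6.40 CPM. The summed level of these 8 markers ran from 16.2 to 19.8 CPM in SC cells at 0.77 cP, from 12.4 to 13.4 CPM in those at 8 cP and from 10.99 to 12.4 CPM in shTRPV4 cells. *PECAM1* averaged 5.04, 2.75 and 2.18 CPM in that order, *CD14* 5.86, 4.25 and 3.47 CPM, *COL1A1* 6.40, 5.03 and 4.43 CPM, and *LUM* 0.766, 0.690 and 1.47 CPM. The part of these markers in the differences given here was not tested.

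In the plot of each gene in each sample, raised viscosity gave 1 difference that passed the test, a rise of *SERPINB2*. Of all genes tested, 19.3% passed in that comparison, and the call of *SERPINB2* was lost without either of 2 single samples. Knockdown at 8 cP went with more *PLAT* and less *SERPINE2*, where 20% of all genes tested passed. *PLAU* overlapped between all 3 groups. In bulk RNA, a gene lost from some cells and a gene lowered in each cell cannot be told apart.

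**Figure D1:**
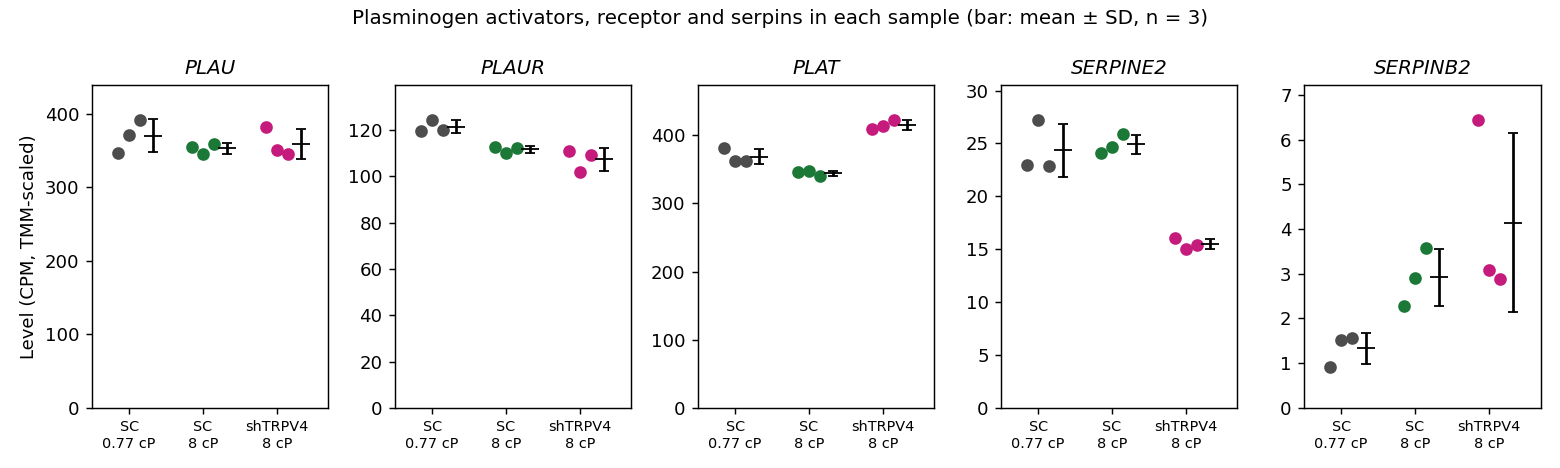
Level of *PLAU*, *PLAUR*, *PLAT*, *SERPINE2* and *SERPINB2* in CPM (linear axes from 0, 1 scale per gene) in the 9 samples, 1 point per sample in replicate order and the mean ± SD (n = 3) beside each group. *SERPINE2* lay between 15.0 and 16.0 CPM in shTRPV4 cells and between 22.9 and 27.3 CPM in the SC samples, and *SERPINB2* of shTRPV4 replicate 1 stood at 6.45 CPM above the other 8 samples.

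*PLAT* (ENSG00000104368) occupies bases 42174718 to 42207709 of chromosome 8, minus strand (GRCh38), and its canonical transcript has 14 exons. Replicates 1 to 3 measured 381, 362 and 363 CPM at 0.77 cP in SC cells. Those at 8 cP held 345, 348 and 340 CPM, and shTRPV4 cells 409, 413 and 423 CPM. The 3 groups did not overlap at all, with SC cells at 8 cP lowest and shTRPV4 cells highest. *PLAT* was 1.21-fold higher in shTRPV4 than in SC cells at 8 cP (log2 fold change of SC over shTRPV4 -0.27, SE 0.041, adjusted p = 0.000289). It was also higher in shTRPV4 cells than in SC cells at 0.77 cP, by 0.17 on the log2 scale (SE 0.041, adjusted p = 0.00318). The lower level at 8 cP than at 0.77 cP in SC cells did not pass the test (log2 fold change -0.098, 95% interval -0.19 to -0.011, adjusted p = 0.106). With samples dropped one at a time, both differences of the shTRPV4 cells kept passing, with adjusted p of at most 0.00265 against SC cells at 8 cP and 0.0153 against SC cells at 0.77 cP.

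*PLAU* (ENSG00000122861; chromosome 10, 73909177 to 73917496, plus strand, 11 exons) encodes the activator that acts at the cell surface. Its levels were 347, 372 and 393 CPM in SC cells at 0.77 cP, then 355, 345 and 359 CPM in SC cells at 8 cP, and 382, 351 and 345 CPM in shTRPV4 cells. The groups overlapped in all 3 comparisons. With viscosity in SC cells its log2 fold change was -0.069 (95% interval -0.18 to 0.043, adjusted p = 0.391). For SC over shTRPV4 cells at 8 cP it was -0.024 (95% interval -0.14 to 0.088, adjusted p = 0.800), and for shTRPV4 cells over SC cells at 0.77 cP -0.045 (95% interval -0.16 to 0.067, adjusted p = 0.530). The bound of these intervals furthest from 0 was -0.18 on the log2 scale, and differences of *PLAU* within them remain possible. As they rest on a spread between samples that may be technical, larger differences are not excluded. *PLAU* shares 915 exon bases with *C10orf55*, a non-coding gene on the other strand with 110 to 206 counts, against 23861 to 40373 counts for *PLAU*. The strand option of the counting is not given in the sources used here.

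*PLAUR* (ENSG00000011422; chromosome 19, 43646095 to 43670547, minus strand, 7 exons) encodes the receptor of urokinase, which a lipid anchor holds in the membrane. It measured 120, 125 and 120 CPM in SC cells at 0.77 cP. At 8 cP they held 113, 110 and 112 CPM, and shTRPV4 cells 111, 102 and 109 CPM. Every sample at 8 cP, SC or shTRPV4, lay below every SC sample at 0.77 cP, while both groups at 8 cP overlapped. *PLAUR* was lower in shTRPV4 cells than in SC cells at 0.77 cP by a log2 fold change of -0.18 (SE 0.044, adjusted p = 0.00437). With viscosity in SC cells the change was -0.12 on the log2 scale (SE 0.044, 95% interval -0.22 to -0.027, adjusted p = 0.0674), short of the threshold. Leaving out shTRPV4 replicate 1 took this adjusted p to 0.0470, and across the samples left out in turn it ran from 0.0470 to 0.249. Between SC and shTRPV4 cells at 8 cP it was 0.057 (95% interval -0.038 to 0.15, adjusted p = 0.416).

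The promoter window of *PLAUR* held 2 of the 7 short motifs searched on both strands in the 250 bases before each start, and stretches of at most 30 bases around the matches are shown because the window also lies in an exon of a longer *PLAUR* transcript. Sequences are from the RefSeq promoter table (GRCh38), 5′ to 3′ on the strand of the gene, with capitals marking the match. The first, at chr19:43670339-43670365, holds the AP-1 motif TGACTCA, read on the other strand, 186 bases before the start, and the second, at chr19:43670241-43670269, holds the EGR motif GCGTGGGCG, also read on the other strand, 90 bases before the start.
PLAUR AP-1: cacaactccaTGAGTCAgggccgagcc
PLAUR EGR: gagggggaggCGCCCACGCatctggggct
Of 35116 RefSeq windows of the same length, 4.2% held the AP-1 letters and 0.72% the EGR letters. The CRE motif TGACGTCA (1.65% of windows), the TEAD motif GGAATG (11.9%), the GC box GGGCGG (42.6%), the CCAAT box (32.0%) and the TATA box TATAAA (10.7%) had no match in the *PLAUR* window. A match is a match of letters only, and no binding was measured here.

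*SERPINE2* (ENSG00000135919; chromosome 2, 223975045 to 224039318, minus strand, 9 exons) had the smallest adjusted p of the members in both comparisons of shTRPV4 cells. It measured 23.0, 27.3 and 22.9 CPM in SC cells at 0.77 cP. It stood at 24.1, 24.6 and 25.9 CPM in SC cells at 8 cP, and at 16.0, 15.0 and 15.4 CPM in shTRPV4 cells. All 3 shTRPV4 samples fell below all 6 SC samples, and the SC groups overlapped. *SERPINE2* was 1.61-fold higher in SC than in shTRPV4 cells at 8 cP (log2 fold change 0.69, SE 0.070, adjusted p = 7.21e-06). shTRPV4 cells were also lower than SC cells at 0.77 cP (log2 fold change -0.65, SE 0.070, adjusted p = 3.68e-06). With viscosity in SC cells the log2 fold change of *SERPINE2* was 0.034 (95% interval -0.11 to 0.18, adjusted p = 0.773), within the replicate spread. Leaving out samples in turn kept the log2 fold change of SC over shTRPV4 cells at 8 cP between 0.66 and 0.71.

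The 250 bases before the outermost annotated start of *SERPINE2* are shown because they hold 4 GC boxes, 2 of them adjoining. They were read from the genome sequence (GRCh38, chr2:224039319-224039568, minus strand), since the RefSeq windows of *SERPINE2* lie at another start, and capitals mark the GC boxes.
SERPINE2: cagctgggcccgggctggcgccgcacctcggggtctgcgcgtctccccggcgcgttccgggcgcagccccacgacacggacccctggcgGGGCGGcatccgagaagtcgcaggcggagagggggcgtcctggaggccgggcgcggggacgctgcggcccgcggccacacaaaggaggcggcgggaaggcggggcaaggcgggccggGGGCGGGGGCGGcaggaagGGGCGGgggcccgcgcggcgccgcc
The boxes begin 161, 44, 38 and 25 bases before that start. None of the other 6 motifs matched in this window, which has no TATA box.

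*SERPINB2* (ENSG00000197632; chromosome 18, 63871692 to 63903888, plus strand, 8 exons) was the scarcest member and the one that rose with viscosity. It had 87, 97 and 160 counts in SC cells at 0.77 cP, or 0.923, 1.51 and 1.56 CPM. In SC cells at 8 cP it had 226, 281 and 324 counts, or 2.29, 2.91 and 3.57 CPM. In shTRPV4 cells it had 591, 242 and 261 counts, or 6.45, 3.09 and 2.89 CPM. Each of the 6 samples at 8 cP exceeded each of the 3 at 0.77 cP, and shTRPV4 replicate 1 lay well above every other sample. *SERPINB2* was 2.20-fold higher in SC cells at 8 cP than at 0.77 cP (log2 fold change 1.14, SE 0.29, adjusted p = 0.0130). That call rested on single samples, since the adjusted p became 0.0839 without SC 0.77 cP replicate 1 (log2 fold change 0.93) and 0.0593 without SC 8 cP replicate 3 (0.98). Over all samples left out in turn it ran from 0.000579 to 0.0839.

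shTRPV4 cells held 3.14-fold more *SERPINB2* than SC cells at 0.77 cP (log2 fold change 1.65, SE 0.28, adjusted p = 0.000245), and 1.17 on the log2 scale without shTRPV4 replicate 1 (adjusted p = 0.000273). At 8 cP, the log2 fold change of SC over shTRPV4 cells was -0.51 (95% interval -1.07 to 0.044, adjusted p = 0.192), which shrank to -0.034 without shTRPV4 replicate 1. With the samples left out in turn its adjusted p ran from 0.0680 to 0.939, and among the other settings it ran from 0.00126 to 0.413, passing with no filter on low counts. In GENCODE release 44, *SERPINB2* shares 547 exon bases with ENSG00000289724 on the same strand, a gene that is not among the 60664 genes listed.

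The window before the canonical start of *SERPINB2* is shown because its only match among the 7 motifs is a TATA box, which begins 30 bases before the start. It is the RefSeq promoter table's sequence (GRCh38, chr18:63887455-63887704, plus strand), with the TATA box in capitals. The *SERPINE2* window lies before an outermost rather than a canonical start, so the motifs of both windows cannot be compared on equal terms.
SERPINB2: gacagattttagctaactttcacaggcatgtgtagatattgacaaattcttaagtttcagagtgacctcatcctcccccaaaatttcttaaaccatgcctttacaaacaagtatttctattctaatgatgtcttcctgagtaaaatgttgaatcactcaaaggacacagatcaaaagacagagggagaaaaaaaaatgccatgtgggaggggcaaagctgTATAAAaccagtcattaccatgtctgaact

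Counted over the members, raised viscosity in SC cells called 1 of 5 genes, *SERPINB2*, and that upwards. Of all genes tested, 19.3% were called in that comparison, 9.57% higher and 9.69% lower at 8 cP. Samples of *PLAUR*, *PLAT* and *SERPINB2* did not overlap between the viscosities, which held for 38.4% of all genes. Between SC and shTRPV4 cells at 8 cP, 2 of 5 members were called, *SERPINE2* higher and *PLAT* lower in SC cells, against 20% of all genes, 11% of them higher and 9.02% lower. These same 2 members were those without overlap, a pattern of 36.3% of all genes. When shTRPV4 cells were set against SC cells at 0.77 cP, 4 of 5 members were called, *PLAT* and *SERPINB2* higher and *PLAUR* and *SERPINE2* lower. There the background was 42.4% of all genes, 20.4% higher and 22% lower. The samples of these 4 members did not overlap, as was so for 50.6% of all genes. The 3 comparisons share their groups in pairs and are not independent of each other.

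**Figure D2:**
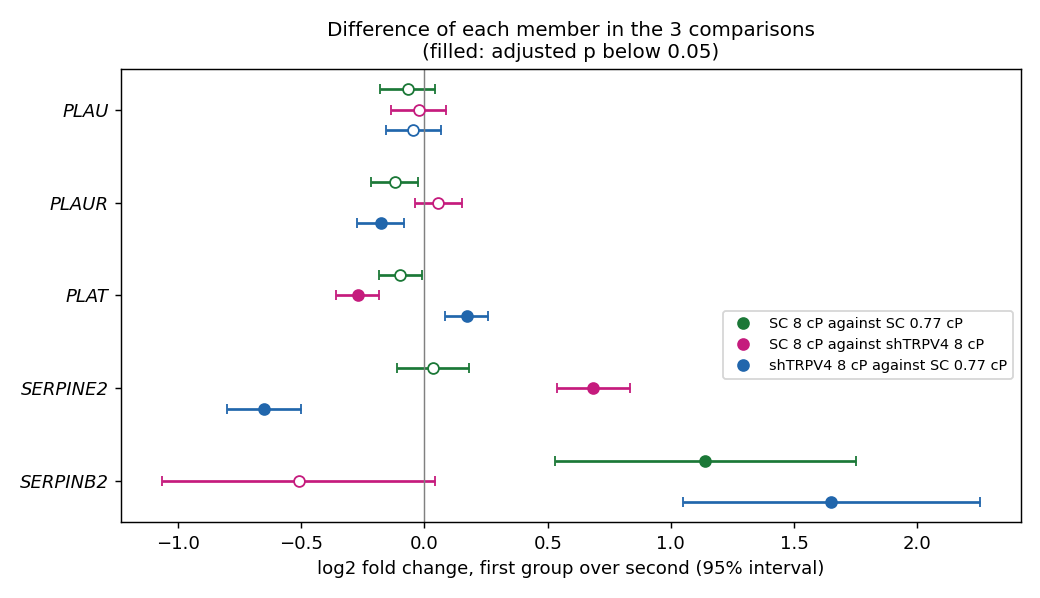
log2 fold change of each member (horizontal axis, first group over second) with its 95% interval in the 3 comparisons, which are distinguished by colour, with filled points for an adjusted p below 0.05. The intervals of *SERPINE2* against shTRPV4 cells (0.54 to 0.83) and of *PLAT* (-0.36 to -0.18) lie on opposite sides of 0, and all 3 intervals of *PLAU* include 0.

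Levels of different genes were compared per kilobase of the exons of each gene. In SC cells at 0.77 cP this gave 126 ± 7.70 CPM per kilobase for *PLAU* (SD, n = 3), 47.4 ± 1.39 for *PLAT*, 27.2 ± 0.620 for *PLAUR*, 2.72 ± 0.279 for *SERPINE2* and 0.485 ± 0.129 for *SERPINB2*. Activators and receptor were therefore more abundant than both serpins in every group. The order was the same in all 3 groups, and neighbours in it did not overlap, with 1 exception. In shTRPV4 cells *SERPINE2* (1.73 ± 0.0552 CPM per kilobase) and *SERPINB2* (1.51 ± 0.730 CPM per kilobase) did overlap, since *SERPINB2* of replicate 1 reached 2.35. The length used moved the values, as the exons of *SERPINE2* span 8957 bases in all and 2226 in its canonical transcript. With canonical lengths the order was unchanged, *SERPINE2* had 6.95 ± 0.222 and *SERPINB2* 2.17 ± 1.05 CPM per kilobase in shTRPV4 cells, and these 2 no longer overlapped.

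**Figure D3:**
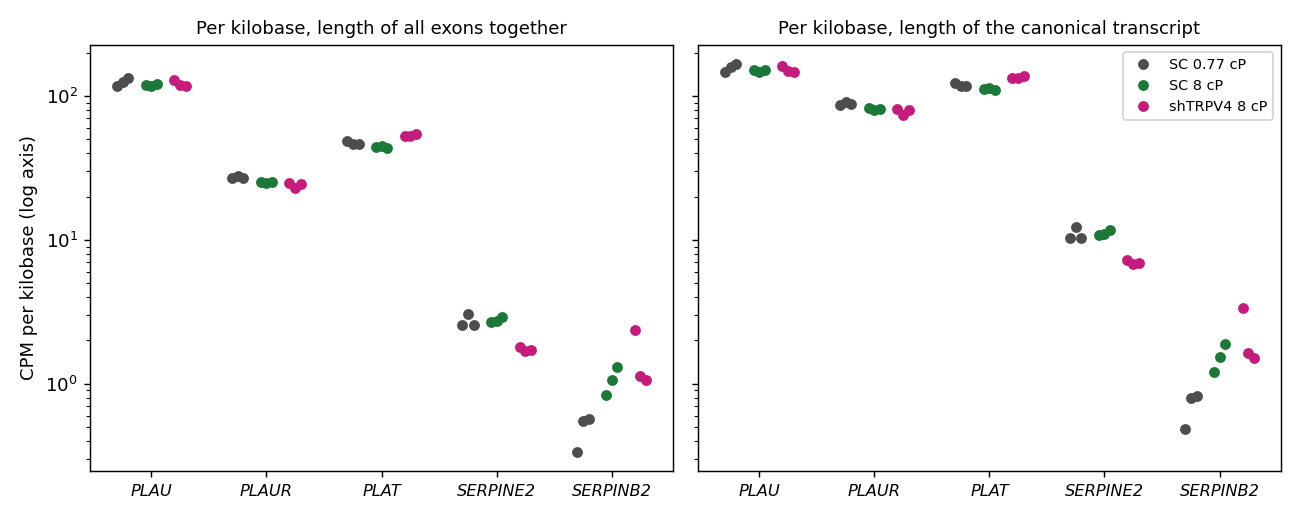
CPM per kilobase (log axis) of the 5 members in the 9 samples, over the length of all exons together (left) and of the canonical transcript (right), with colours for the groups. In both panels *PLAU* stands highest and *SERPINB2* lowest, with 1 exception in the left panel. There *SERPINB2* of shTRPV4 replicate 1 (2.35) lies above *SERPINE2* of that group (at most 1.79). The 2 serpins draw closest together in shTRPV4 cells.

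Plasminogen itself was near absent, with *PLG* at 0 counts in 8 samples and 1 count in the other. *PLG* is 1 of 32 genes of the plasminogen system besides the members, written as a list of proteases that activate it, inhibitors, surface binders and clearance or partner receptors, of which 23 were tested. With viscosity in SC cells 0 rose and 5 fell, beside 19.3% of all genes called in that comparison, 9.69% lower. The list's median log2 fold change was -0.11, against -0.0065 over all genes tested. The 5 were *MRC2*, a collagen receptor that partners the urokinase receptor (-0.27, SE 0.054, adjusted p = 0.00344), *KRT8*, a keratin that binds plasminogen when exposed at the surface (-0.31, SE 0.062, adjusted p = 0.00403), *VTN*, *FPR1* and the clearance receptor *LRP1* (-0.24, SE 0.069, adjusted p = 0.0241). *VTN*, which encodes the matrix protein vitronectin, was scarce, with 57 to 88 counts at 0.77 cP and 10 to 39 at 8 cP (-1.66, SE 0.40, adjusted p = 0.0109). *FPR1*, a formyl peptide receptor, differed by -0.36 (SE 0.10, adjusted p = 0.0219). Samples of *LRP1* and *FPR1* overlapped between the groups. The count of 5 became 2 without SC 0.77 cP replicate 1, and 3 without SC 0.77 cP replicate 2, SC 8 cP replicate 2 or SC 8 cP replicate 3.

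Between SC and shTRPV4 cells at 8 cP, 4 of the 23 were higher in SC cells and 2 lower, beside 11% and 9.02% of all genes, with a median log2 fold change of 0.12 against -0.00064 over all genes. Those higher in SC cells were *CTSB*, which encodes cathepsin B, a lysosomal protease able to activate pro-urokinase (0.49, SE 0.049, adjusted p = 5.96e-06), *ENO1*, a glycolytic enzyme that binds plasminogen at the surface (0.45, SE 0.052, adjusted p = 2.62e-05), the serpin *SERPINI1* (0.68, SE 0.17, adjusted p = 0.00895) and the clearance receptor *VLDLR* (0.34, SE 0.067, adjusted p = 0.00213). Lower in SC cells were the membrane protease *ST14* (-0.59, SE 0.11, adjusted p = 0.00130) and *VTN* (-1.99, SE 0.40, adjusted p = 0.00243). Counts of *VTN* ran from 60 to 139 in shTRPV4 cells, above the 10 to 39 of SC cells at 8 cP. The count of 6 became 10 without shTRPV4 replicate 3.

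When shTRPV4 cells were set against SC cells at 0.77 cP, 1 of the 23 was higher and 12 lower, beside 20.4% and 22% of all genes, with a median of -0.26 against -0.011 over all genes. *ST14* was the 1 that was higher (0.63, SE 0.11, adjusted p = 0.000268). *CTSB* (-0.57, SE 0.049, adjusted p = 3.54e-07), *ENO1* (-0.58, SE 0.052, adjusted p = 7.08e-07), *MRC2* (-0.37, SE 0.054, adjusted p = 6.55e-05) and *SERPINI1* (-1.03, SE 0.16, adjusted p = 0.000138) were among the 12. By role, lower calls fell on 4 of 6 surface binders tested, 5 of 10 clearance or partner receptors, 2 of 3 inhibitors and 1 of 4 proteases.

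**Figure D4:**
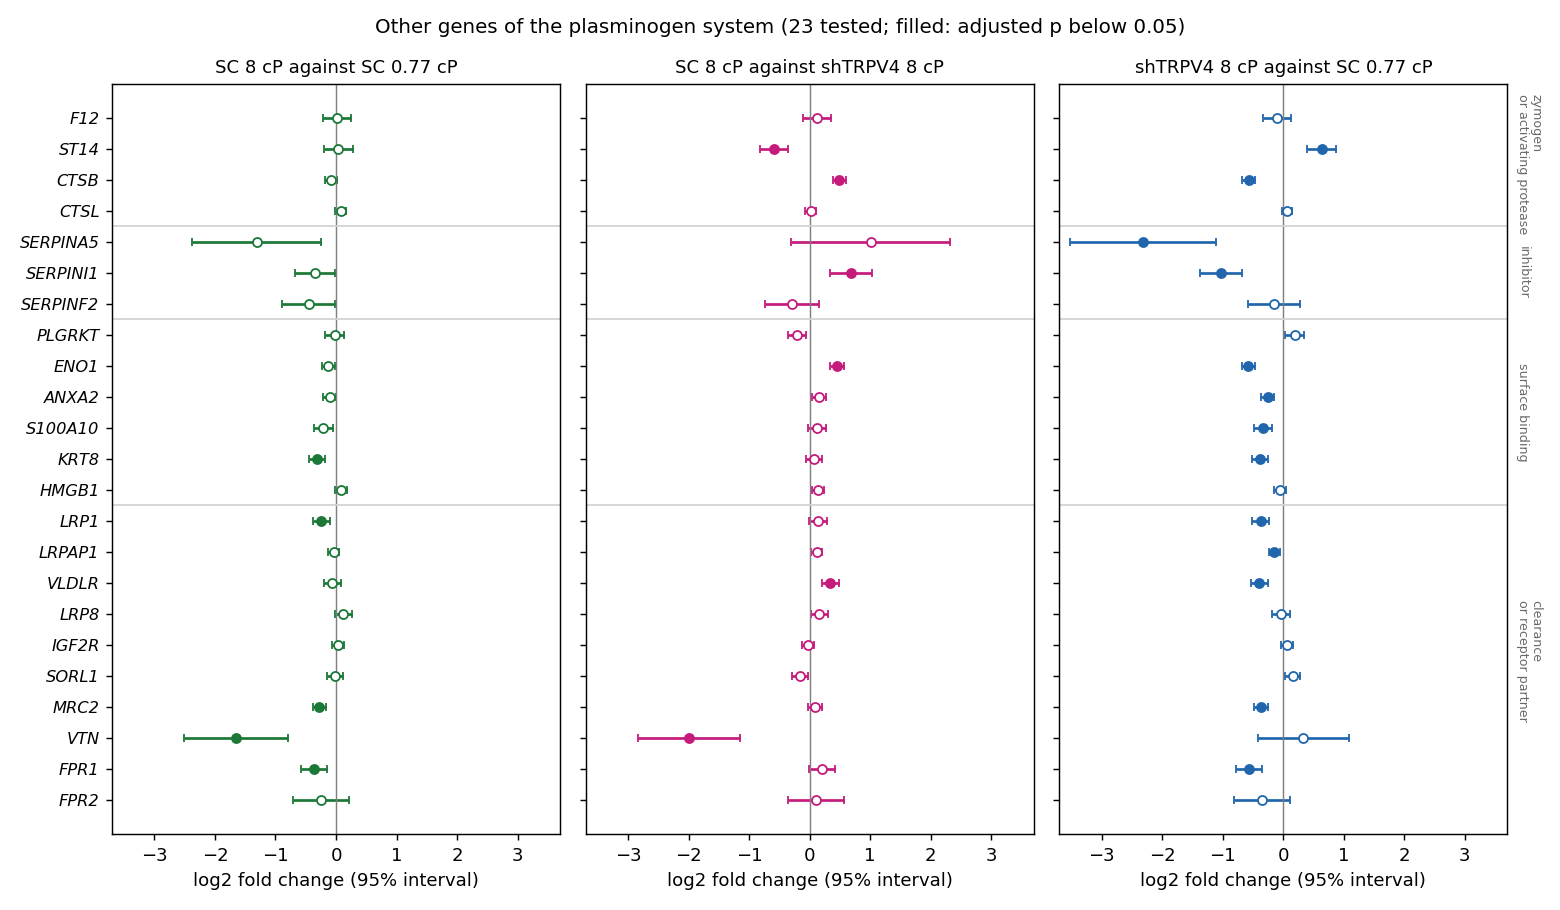
log2 fold change (horizontal axis, first group over second, 95% interval) of the 23 genes of the plasminogen system list, the members not included, 1 panel per comparison, grouped by role, with filled points for an adjusted p below 0.05. Filled points number 5, 6 and 13 from left to right, and in the left panel all 5 lie below 0.

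The serpin family, taken from symbols of the form SERPIN with a letter and a number, had 34 genes of which 16 were tested, the members *SERPINE2* and *SERPINB2* included. With viscosity in SC cells *SERPINB2* was the 1 that rose, and 5 fell, beside 9.57% of all genes higher and 9.69% lower. The falls with the smallest adjusted p were those of *SERPINB9*, an intracellular inhibitor of granzyme B (-0.73, SE 0.093, adjusted p = 0.000147), *SERPINB1*, an inhibitor of neutrophil proteases (-0.56, SE 0.11, adjusted p = 0.00413), and *SERPIND1*, which encodes heparin cofactor II (-0.96, SE 0.22, adjusted p = 0.00864). The median log2 fold change of these 16 was -0.23, against -0.0065 over all genes. The count of 6 became 3 without SC 0.77 cP replicate 1 or without SC 8 cP replicate 3.

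Between SC and shTRPV4 cells at 8 cP, 3 serpins were higher in SC cells and 1 lower, beside 11% and 9.02% of all genes, with a median of 0.13 against -0.00064 over all genes. *SERPINE2* had the smallest adjusted p of the 16, *SERPINI1* was given above, and *SERPINH1*, a collagen chaperone of the endoplasmic reticulum, was also higher (0.23, SE 0.044, adjusted p = 0.00163). *SERPINB7* was lower (-0.96, SE 0.15, adjusted p = 0.000314), at group means of 1.55 CPM in SC cells and 3.01 CPM in shTRPV4 cells. In shTRPV4 cells against SC cells at 0.77 cP, 2 were higher and 10 lower, beside 20.4% and 22% of all genes, with a median of -0.50 against -0.011 over all genes. The 2 were *SERPINB2* and *SERPINB7* (1.35, SE 0.15, adjusted p = 6.06e-06), and *SERPINB9* (-0.79, SE 0.094, adjusted p = 9.40e-06) and *SERPINH1* (-0.35, SE 0.044, adjusted p = 1.48e-05) were among the 10. *SERPINA5* and *SERPINB4*, also among the 10, had at most 37 and 21 counts in a sample. *SERPINB5*, which was not called, had at most 29, and these scarce genes enter the medians of the family.

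Across the 9 samples the members did not move as one. *PLAT* and *SERPINE2* ran opposite to each other (Pearson's r of log2 CPM -0.93), as did *PLAUR* and *SERPINB2* (-0.66) and *SERPINE2* and *SERPINB2* (-0.50). *PLAUR* ran with *SERPINE2* (0.69) and with *PLAU* (0.47), and the other 5 pairs lay between -0.43 and 0.26. These values describe 9 samples that share 3 groups, and carry no test. Of the 9446 genes averaging 10 CPM or more, those most like *PLAT* were *MSLN* (0.988), *PROCR* (0.982) and *FSTL3* (0.982). Most like *SERPINE2* were *KHDRBS3* (0.988), *GPBP1L1* (0.987) and *PRDM8* (0.983), and most like *SERPINB2* were *NXPE3* (0.996), *ZNF664* (0.987) and *PWWP3A* (0.981). For *PLAUR* they were *ZNF264* (0.966), *VPS51* (0.946) and *PER1* (0.944), and for *PLAU* they were *YY1AP1* (0.904), *USP6NL* (0.882) and *MICB* (0.869). The number of genes with r above 0.95 was 126 for *SERPINB2*, 91 for *SERPINE2*, 18 for *PLAT*, 1 for *PLAUR* and 0 for *PLAU*.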

How the data were processed

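MDA-MB-231 transcripts were counted in 3 groups of 3 samples, as the sample titles name them. As the authors describe, stranded poly(A) libraries were read as pairs of 100 bp, mapped to GRCh38 with HISAT2 2.2.1 and counted on the exons of Ensembl genes with HTSeq 0.13.5. The deposited values are these raw counts, 1 table per sample, without normalization. Positions and exon lengths were taken from GENCODE release 44, which held 60463 of the 60664 genes. Symbols came from a list of gene names by Ensembl id. Counts were scaled with TMM, filtered with filterByExpr and tested with edgeR's quasi-likelihood test (edgeR 4.0.16, limma 3.58.1, R 4.3.3) on all 9 samples with 1 coefficient per group, with Benjamini-Hochberg adjustment over 18264 genes and a threshold of 0.05. Every adjusted p is from this test unless another is named. The sources do not say of these libraries whether replicates were separate cultures, so p-values measure the spread between these samples, which may be technical (common biological coefficient of variation 0.0633). Counts carry no molecular identifiers. The members, the gene lists and the motifs were chosen with earlier results of these data known. Besides the members and *TRPV4*, the text names *PLG*, per comparison the 4 genes of each list with the smallest adjusted p past the threshold, the 3 genes most like each member, and genes that share exon bases with a member. *LRP1*, and *VTN* and *ST14* in the comparisons of shTRPV4 cells where they were not among the 4, were named after their values were seen. The same holds for *SERPINA5*, *SERPINB4* and *SERPINB5*, named for their few counts. A gene of these lists is not reported here and was left out of their counts. The test was also run on counts simulated from its own fit, a check of the code that does not bear on the members' differences. Alternatives were upper quartile scaling, DESeq2 1.42.0, 2 other filters on low counts, the 6 samples of a comparison alone, the replicate number as a block, canonical lengths, other measures of likeness, and each sample left out in turn.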

Additional observations from a re-analysis of the deposited data

How the results depend on the processing

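In shTRPV4 cells against SC cells at 0.77 cP the 4 members called kept their direction and passed the threshold under all alternatives run, as did *PLAT* and *SERPINE2* between SC and shTRPV4 cells at 8 cP. For SC cells at 8 cP against 0.77 cP, the 1 member called became 2 with upper quartile scaling or with the 6 samples of the comparison alone, as *PLAUR* passed, and 0 to 2 with a sample left out. In the same comparison the calls in the plasminogen system ranged from 2 to 7 (5 as reported) and in the serpin family from 3 to 8 (6 as reported) with a sample left out. Between SC and shTRPV4 cells at 8 cP, the 6 calls in the plasminogen system became 10 with DESeq2 (7 higher, 3 lower), 11 without a filter on low counts, where 31 genes were tested, and 6 to 10 with a sample left out. The serpin family's 4 calls became 7 without a filter, where 28 were tested. Some log2 fold changes that never passed turned sign. *SERPINE2* between viscosities ran from -0.000297 to 0.13 with a sample left out, *PLAU* from -0.052 to 0.024 between SC and shTRPV4 cells at 8 cP and from -0.091 to 0.0074 between shTRPV4 cells and SC cells at 0.77 cP, and *TRPV4* between viscosities from -0.33 to 0.27, and 0.000163 with DESeq2. The cause of these differences between settings was not tested.

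With the replicate number as a block (replicate block), the plasminogen system had 10 calls between SC and shTRPV4 cells at 8 cP, and the counts of members called did not change. Deviations from the group means of same-numbered samples correlated between -0.055 and 0.090, and those of the other pairs between -0.11 and 0.11. With 3 samples per group, these values cannot decide whether same-numbered samples shared a culture or batch. With Spearman's rho, 1 of the 3 most alike genes was shared for *PLAUR*, *PLAT* and *SERPINE2* and 0 for *PLAU* and *SERPINB2*. Summing *SERPINB2* with the gene that shares its exon bases could not be run, as that gene is not among the 60664 genes listed. *SERPINB2* and *VTN* rest on few counts, 87 to 591 and 10 to 139 per sample, and their intervals are wide. Few counts also underlie *SERPIND1* (31 to 150 per sample), *SERPINI1* (69 to 216) and *SERPINB7* (73 to 313).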
